A study of Mus musculus with 2931 samples.

Results

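The cells described here are the mouse lung endothelial cells that carry the authors' label Early Car4- capillaries, compared between postnatal day 7 (P7) and postnatal day 1 (P1) in normal air. They were chosen by that label, by day and by treatment, and they number 556 of the 2931 cells of the whole dataset and 556 of the 841 cells with this label. The single cells came from distal lung, were sorted by flow cytometry and were labelled as endothelial. At P1 in normal air there were 280 cells, 160 of a female and 120 of a male mouse. At P7 in normal air there were 276 cells, 162 of a female and 114 of a male mouse. The female and the male P7 mouse kept in hyperoxia (raised oxygen), with 151 and 126 cells of this label, entered the statistical fit only, to add to its estimate of the spread between mice. The labels give no strain, and they do not say whether a mouse name stands for a single animal or a pool, so p-values measure the spread between 2 mouse names per group.

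Gas exchange in the lung rests on capillaries of more than 1 type. Car4+ capillary cells, also called aerocytes, carry carbonic anhydrase 4 and lie against the thin face of the alveolus, while Car4- cells, also called general capillary cells, carry the lipase anchor Gpihbp1 and the apelin receptor Aplnr, regulate vessel tone and divide to supply both types. The first postnatal week of the mouse is when septa begin to subdivide the air spaces and the capillary bed grows with them.

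Marker genes describe the label but are no independent check of it, since the authors gave the labels, which name Car4, to these same cells. Each of the 6 Car4+ markers (Car4, Ednrb, Apln, Tbx2, Emp2 and Fibin) was lower in the Early Car4- cells than in the Car4+ cells of the same mouse, in each of the 4 mice, and each of the 6 general capillary markers (Gpihbp1, Aplnr, Ptprb, Plvap, Cd93 and Kit) was higher in each of the 4. Car4 itself stood at 208 and 475 CPM (counts of a gene per 1000000 counts of the summed cells) in the Early Car4- cells of the female and male P1 mouse and at 149 and 413 in those of P7, against 3397 to 9358 in the Car4+ cells of these 4 mice. The summed level of 6 endothelial markers was 12291 and 12416 CPM at P1 and 10033 and 11032 at P7. Markers of other lineages were low: their sums were 11.7 to 41.3 CPM for leukocytes, 25 to 89.3 for epithelium and 4.27 to 29.7 for mesenchyme, and Ptprc, Epcam and Dcn were at or near 0. The platelet and red cell sum was 102 and 99.4 in the male P1 and P7 mouse and 1.85 and 13.9 in the females, so the male mice of both days were the high ones.

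Depth and sequencing run differed between the mice. The summed reads were 76267681 and 98605114 for the female and male P1 mouse and 161045882 and 28669835 for those of P7, and the median cell had 183073 (male P7) to 950650 (female P7) reads. The CD31-sorted cells of no 2 of the 4 mice came from the same run, and 4 Early Car4- cells of other gates of the male P7 mouse came from the run of the male P1 mouse, so day and run cannot be told apart. At 50000 reads per cell, the median cell had 3163 and 2241 detected genes at P1 and 3251 and 2352 at P7, so the female P1 and male P7 mouse stood above the other pair. Early Car4- cells were 50.5% and 51.7% of the CD31-sorted cells at P1 and 48.8% and 55.0% at P7, a difference of 0.775 percentage points in an exact permutation test with p = 1, where 0.333 is the smallest p that 2 mice against 2 allow.

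Of 13969 genes tested, 0 (0%) passed edgeR's quasi-likelihood test at an adjusted p under 0.05, and 1579 had an unadjusted p under 0.05. In 2950 genes (21.1%) both P7 mice lay above both P1 mice, and in 2622 genes (18.8%) both lay below. An unadjusted p under 0.05 was found with a higher level at P7 in 833 genes (5.96%) and with a lower level in 746 (5.34%). DESeq2, run on the same reads as an alternative, called 241 genes higher (1.73%) and 184 lower (1.32%). Without the female P1 mouse, edgeR called 280 genes, 157 higher and 123 lower at P7, with the remaining P1 mouse assumed to vary like the other groups. The genes below are therefore given by their level in each mouse, and none of them passed the main test.

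The genes with the smallest p among those higher at P7 included a secreted Wnt inhibitor, a prostaglandin enzyme and a plasminogen activator. Wif1, which binds Wnt ligands outside the cell, stood at 26.6 and 6.31 CPM in the female and male P1 mouse and at 163 and 187 at P7, a log2 difference of 3.40 ± 0.55 (SE, adjusted p = 0.305 in edgeR). It was read in 5.66% and 2.5% of the cells at P1 and in 28.4% and 55.0% at P7 when each cell was thinned to 50000 reads, so both its level and the number of cells with a read were higher in both P7 mice. Hpgd, which inactivates prostaglandins, stood at 825 and 277 CPM at P1 and at 3067 and 2970 at P7, a log2 difference of 2.43 ± 0.52 (SE). Most cells already held it: it was read in 86.2% and 61.7% of thinned cells at P1 and in 95.1% and 98.2% at P7, and the median cell stood at 637 and 29.8 CPM at P1 and at 2429 and 2335 at P7. Plat, the tissue plasminogen activator, stood at 33.2 and 31.1 CPM at P1 and at 203 and 142 at P7. Tspan12, a tetraspanin that assists norrin signalling through Frizzled receptors, stood at 97.9 and 37.3 at P1 and at 390 and 283 at P7. Hpgd and Tspan12 were also higher in both P7 mice in Car4+ capillaries and in venous endothelium, while Wif1 and Plat were not. In venous endothelium, with 17 to 50 cells per mouse, Wif1 stood at 0.27 and 2.01 against 0 and 33.7 CPM. Plat stood there at 0 and 1.97 against 22.6 and 0.56. Wif1 had a fitted venous log2 difference of 3.63. No difference from venous endothelium was shown for Wif1 or Plat (unadjusted interaction p of class and day = 0.49 and 0.80 in edgeR). Hpgd stood at 536 and 307 against 2478 and 984 CPM in Car4+ capillaries and at 66.9 and 89.1 against 657 and 691 in venous endothelium.

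The remaining 8 genes named on the higher side were H2-Q7, a nonclassical MHC class I gene, Erp44 (a chaperone of the secretory path), Dld (a subunit of mitochondrial dehydrogenase complexes), Farsb (a tRNA synthetase), Atp11a (a lipid flippase), Rnf14, Exosc10 (an RNA exosome subunit) and Tmod2 (a cap of actin filaments). Their log2 differences ran from 1.67 for Tmod2 to 2.22 for Rnf14, and their adjusted p in edgeR from 0.309 for H2-Q7 to 0.374 for Tmod2. H2-Q7 rests on reads that near-identical H2-Q genes can share, so its level is uncertain.

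**Figure D1:**
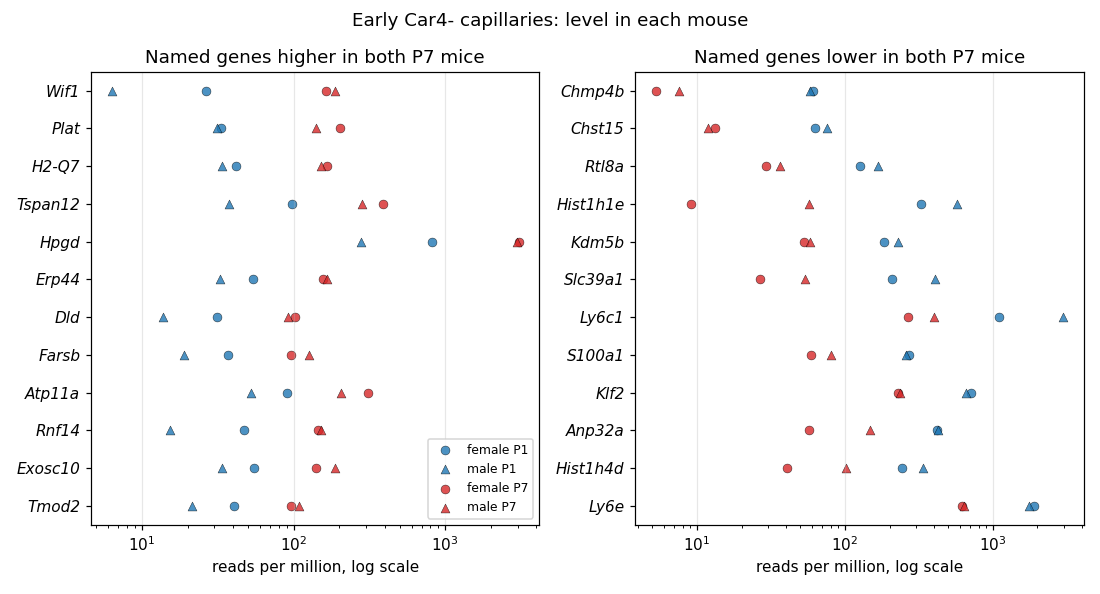
Level of the 24 named genes in each mouse, in CPM on a log axis, with P1 in blue, P7 in red, circles for female and triangles for male mice. The rule for naming asked that the P1 and P7 mice not overlap, so their separation is no result. Hpgd lies highest at P7, at 3067 and 2970 CPM, and Chmp4b lowest, at 5.25 and 7.53.

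The genes lower at P7 included the flow-responsive factor Klf2, the surface proteins Ly6c1 and Ly6e and linker and core histones. Klf2, a transcription factor of quiescent, flow-exposed endothelium, stood at 708 and 662 CPM in the female and male P1 mouse and at 228 and 235 at P7, a log2 difference of -1.67 ± 0.36 (SE, adjusted p = 0.338 in edgeR). Ly6c1, a surface antigen of capillary endothelium, stood at 1096 and 2981 at P1 and at 265 and 402 at P7. Ly6e stood at 1882 and 1761 at P1 and at 614 and 639 at P7, and the mice within a day differed little. Hist1h1e, a linker histone, stood at 325 and 574 at P1 and at 9.14 and 56.9 at P7, and Hist1h4d, a core histone, at 242 and 335 against 40.3 and 102. Slc39a1, a zinc importer, stood at 208 and 405 at P1 and at 26.5 and 53.9 at P7. Chmp4b (a subunit of the ESCRT-III membrane cutting machine) had the lowest levels of the named genes at P7, with 60.7 and 57.9 CPM at P1 and 5.25 and 7.53 at P7. The remaining named genes were Chst15 (a chondroitin sulfotransferase), Rtl8a, Kdm5b (a histone demethylase), S100a1 and Anp32a, with log2 differences from -2.58 for Chst15 to -2.01 for Kdm5b.

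Transcript length moved with the P7 against P1 difference. In the shortest quintile of the genes, with a median longest transcript of 1220 bases, the median log2 difference was -0.46, against 0.17 and 0.21 in the next quintiles and -0.15 in the longest. Among genes at 10 or more CPM in each mouse, the median log2 ratio of the shortest quintile was 0.56 for the male over the female P1 mouse, -0.49 for the male P7 over the male P1 mouse, -0.11 for the female P7 over the female P1 mouse and 0.07 for the male P7 over the female P1 mouse. The male P1 mouse was thus the one with short transcripts high. The length trend was removed from each gene's fit as an alternative, and the median with it removed is given below for cell division, glycolysis, oxidative phosphorylation, interferon-stimulated and cytoskeletal genes. MHC class II genes, also short, with a median of 1669 bases, were near 0 and are given no such value. Among the short genes named as lower at P7, the log2 difference of Ly6c1 was -2.79, or -2.10 with the trend removed. It went from -2.02 to -1.46 for S100a1, from -2.29 to -1.90 for Rtl8a and from -2.15 to -1.77 for Hist1h4d.

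**Figure D2:**
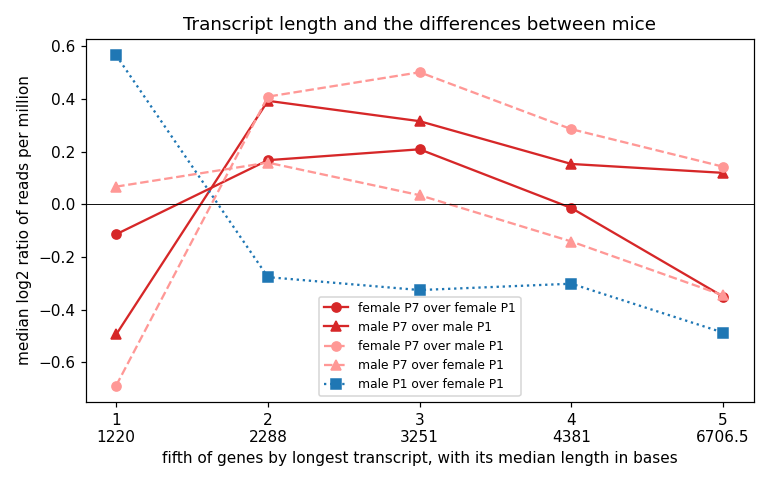
Median log2 ratio of CPM between pairs of mice (vertical axis) by quintile of genes ordered by the length of their longest transcript (horizontal axis, shortest at the left). The male P1 mouse lies above the female P1 mouse in the shortest quintile (0.56) and below it in the others.

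Genes of cell division had the highest median difference of the 25 lists in the fit of 6 mice. Of 20 genes of the list, each tested, 15 were higher in both P7 mice and 0 lower, beside 21.1% and 18.8% of all genes, and the median log2 difference was 1.57 beside -0.03 for all genes. Adjusted over all genes, 0 passed edgeR's test, 6 had an unadjusted p under 0.05 with a higher level (5.96% of all genes), and DESeq2 called 5 (1.73% of all genes). The median was between 1.25 (without the female P7 mouse) and 1.76 (without the male P7 mouse) over all alternatives of the fit, and it was 1.36 with the trend on transcript length removed. With the normal-air mice alone only 3 MHC class II genes were tested, at 16.4 CPM or less in each mouse, and they had a higher median (4.32). Mcm3 and Mcm6, subunits of the helicase that opens DNA for replication, stood at 46.4 and 38.6 and at 50.9 and 31.8 CPM at P1, and at 159 and 113 and at 168 and 87.6 at P7. Rrm2 and Tyms, which make deoxynucleotides, stood at 3.83 and 10.8 and at 24.9 and 23.8 at P1, and at 58.1 and 44.3 and at 72.0 and 78.1 at P7. Top2a, which untangles DNA before mitosis, stood at 5.36 and 4.08 at P1 and at 32.4 and 36.1 at P7, a log2 difference of 2.78 ± 0.57 (SE). Members whose mice overlapped were Mki67, Ccnb1, Ccnb2, Cdk1 and Ccnd1: Cdk1, the mitotic kinase, stood at 27.1 and 34.3 at P1 and at 28.0 and 38.1 at P7.

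The replication genes of the list were read in many cells and the mitosis genes in fewer. Cells with none of 7 replication genes at 10 CPM were 30% and 51.7% at P1 and 30.2% and 13.2% at P7, and cells with none of 8 mitosis genes 82.5% and 88.3% at P1 and 76.5% and 63.2% at P7. Cells with at least 10 CPM of at least 3 of the replication genes (Pcna, Mcm2, Mcm3, Mcm5, Mcm6, Tyms and Rrm2) were 15% (24 of 160) and 4.17% (5 of 120) of the cells of the female and male P1 mouse and 19.8% (32 of 162) and 34.2% (39 of 114) of those of P7. Cells with at least 3 of the mitosis genes (Mki67, Top2a, Ccnb1, Ccnb2, Cdk1, Ccna2, Birc5 and Aurkb) were 1 of 160 and 2 of 120 at P1 and 7 of 162 and 6 of 114 at P7. Both shares were higher in both P7 mice, and the female P1 mouse stood near the female P7 mouse for replication genes. Over all cells the mean summed CPM of the replication genes was 279 and 189 at P1 and 732 and 615 at P7. Without the cells that had at least 3 of them it was 132 and 152 against 324 and 142, so the mice overlapped. For mitosis genes it was 35.6 and 25.9 against 66.5 and 63.7 without such cells. Those cells were picked by the same genes. Depth was greatest in the female and least in the male P7 mouse. With each cell thinned to 50000 reads and a gene counted from 1 read, the replication shares were 14.5% and 6.67% at P1 and 19.8% and 34.2% at P7, and the mitosis shares 1.26% and 1.67% at P1 and 3.70% and 4.50% at P7. Cells with a separate label, Proliferative EC, were 4.13% and 3.88% of the CD31-sorted cells at P1 and 15.6% and 16.5% at P7 (exact permutation test, 2-sided, p = 0.333). The 2 readouts share the mice and the runs.

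**Figure D3:**
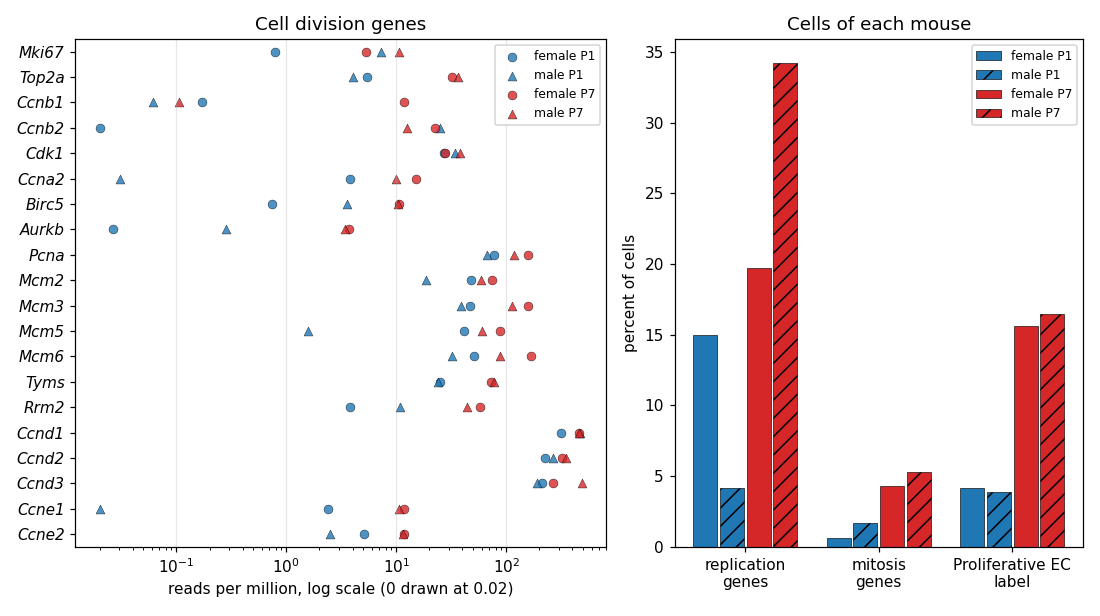
Left, level of each of the 20 cell division genes in each mouse, in CPM on a log axis with 0 drawn at 0.02. Right, percent of the Early Car4- cells with at least 3 replication or mitosis genes at 10 CPM, and percent of CD31-sorted cells with the label Proliferative EC (4.13% and 3.88% at P1, 15.6% and 16.5% at P7).

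Promoters of replication genes are classical targets of E2F factors, which switch on S phase, and the sequences are shown because 3 of the 4 Mcm genes of the list carry an E2F form within the window read. The forms searched were TTTCCCGC, TTTGGCGC, TTTCGCGC and TTTGCCGC, on both strands with overlaps allowed, in RefSeq windows of GRCm38.p6 from 250 bases before to 50 bases after a start. A form was found in 2.26% of 32851 windows, in 4.67% of the tested genes with a window, and in 4 of the 15 cell division genes with a window (Mcm3, Mcm5, Mcm6 and Cdk1). These forms were chosen after the levels had been seen, and no other motif was searched. In the stretches below, 5′ to 3′ on the gene's strand, capitals mark the forms. In Mcm3 the form lay after the start and is not printed.
Mcm6 (chr1:128359715-128359845, minus strand, upstream of the gene): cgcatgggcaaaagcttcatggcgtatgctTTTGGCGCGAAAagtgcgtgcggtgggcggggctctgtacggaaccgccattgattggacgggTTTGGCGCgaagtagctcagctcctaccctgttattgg
Mcm5 (chr8:75109326-75109397, plus strand, upstream of the gene): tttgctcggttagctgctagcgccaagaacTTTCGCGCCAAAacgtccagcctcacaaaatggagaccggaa
Cdk1 (chr10:69353006-69353073, minus strand, upstream of the gene): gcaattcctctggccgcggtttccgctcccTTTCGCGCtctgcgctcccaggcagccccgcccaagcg
In Mcm5 and in the distal site of Mcm6 a pair of forms overlaps on opposite strands. Mcm5 stood at 41.2 and 1.58 CPM at P1 and at 87.8 and 60.1 at P7, and Mcm6 was higher in both P7 mice, while Cdk1, with a form of its own, had mice that overlapped.

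The division list was read beside the same mice's other vessel classes. In Car4+ capillaries 2 of 17 tested division genes were higher in both P7 mice and 2 lower, beside 13.4% and 19.1% of all genes tested there, with a median log2 difference of 0.48 (0.10 for all genes). In venous endothelium 1 of 20 was higher and 2 lower, beside 17.3% and 18% of all genes, with a median of -0.08 (-0.08 for all genes). The counts in Car4+ capillaries were thus near those of all genes. To ask whether the days differ more in 1 class than in another, an interaction of class and day was fitted to the sums of both classes, paired by mouse: 0 of 13946 genes (0%) differed between Early Car4- and Car4+ capillaries and 0 of 14308 (0%) between Early Car4- capillaries and venous endothelium at an adjusted p under 0.05 in edgeR. Unadjusted p under 0.05 was found for 373 (2.67%) and 552 (3.86%) genes, and DESeq2 called 125 and 174. Among the division genes 0 of 17 and 4 of 20 had an unadjusted interaction p under 0.05, so no gene was shown to differ between days in these cells alone.

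For every list below, the background is the 21.1% of all genes higher and the 18.8% lower in both P7 mice, with a median log2 difference of -0.03, and no difference between lists was tested. Genes of sugar and energy use had members on both sides, with 0 past the test. Of 16 glycolysis genes 8 were higher in both P7 mice and 0 lower, with a median log2 difference of 0.33, which was 0.17 with the length trend removed (6 higher and 0 lower). Pfkfb3, which makes the activator of phosphofructokinase, stood at 5.85 and 0.19 CPM at P1 and at 16.5 and 31.1 at P7. It was read in 5.66% and 0.83% of thinned cells at P1 and in 4.94% and 76.6% at P7. A smaller share of cells thus held it in the female P7 than in the female P1 mouse. In the female P7 mouse the top 5% of cells held 98.8% of its level. Ldha, lactate dehydrogenase, stood at 476 and 408 against 750 and 774. Of 26 nuclear genes of oxidative phosphorylation 4 were higher in both P7 mice and 11 lower, with a median of -0.79. The 5 with an unadjusted p under 0.05 on the lower side were Cox6c, Atp5h, Uqcrq, Ndufb9 and Cox4i1, subunits of respiratory complexes: Cox6c stood at 356 and 618 CPM at P1 and at 236 and 212 at P7. On the higher side stood Sdha, the catalytic subunit of complex II, at 147 and 69.4 against 307 and 213, with Atp5a1, Atp5b and Uqcrc2. This list holds short transcripts, with a median of 1232 bases against 3251 for all genes. Its median was -0.20 with the length trend removed and -0.10 without the male P1 mouse.

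Flow and hormone response genes had members on both sides, with 0 past the test. Of 11 shear response genes 1 was higher in both P7 mice and 3 lower, a lower share near that of all genes, with a median of -0.41, or -0.12 without the male P1 mouse and -0.21 without the male P7 mouse. Besides Klf2 the lower ones were Klf4, its close relative, at 520 and 726 CPM at P1 and 282 and 339 at P7, and Nos3, the endothelial nitric oxide synthase, at 89.7 and 83.6 against 65.1 and 42.9. Of 14 glucocorticoid response genes 2 were higher and 6 lower, with a median of -0.69, or -0.17 without the male P1 mouse. Tsc22d3 and Sgk1, both induced by glucocorticoids, were on the higher side, with Tsc22d3 at 115 and 70.0 at P1 and 228 and 249 at P7. Zbtb16, also a glucocorticoid target, stood at 12.5 and 81.1 at P1 and at 1.02 and 0.73 at P7. Nr3c1, the glucocorticoid receptor, stood at 205 and 138 against 96.8 and 97.5. The list thus held members on both sides.

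Of 16 immediate early genes 1 was higher and 4 lower in both P7 mice, a lower share near that of all genes. Their median was -0.61, or -0.09 without the female P1 mouse and -0.25 without the female P7 mouse, and -0.21 in limma on the mean CPM over cells. Btg2, which restrains growth and is also a p53 target, stood at 1331 and 798 CPM at P1 and at 265 and 479 at P7, and Jun at 711 and 611 against 276 and 463. Fos did not separate the days, at 1605 and 1276 against 390 and 1363. Of 16 p53 targets 2 were higher and 3 lower. Cdkn1a, the cell cycle inhibitor p21, stood at 339 and 1323 at P1 and at 215 and 211 at P7, and the male P1 mouse was the high one. Of 13 heat shock genes 4 were higher and 1 lower, with Hspa8, a constitutive chaperone, at 451 and 130 against 972 and 733 and Hspb1 at 35.2 and 45.3 against 9.62 and 19.7.

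Interferon-stimulated genes and genes of the MHC class I pathway each had members on both sides, with 0 past the test. Of 17 interferon-stimulated genes 1 was higher in both P7 mice and 6 lower, with a median of -0.69, or -0.30 without the female P1 mouse, -0.24 without the male P7 mouse and -1.23 without the female P7 mouse. This list too holds short transcripts, with a median of 1885 bases, and its median was -0.78 with the length trend removed. Ifitm3, which blocks virus entry, stood at 1927 and 3359 CPM at P1 and at 831 and 677 at P7, and Bst2, a tether of budding virus, at 429 and 550 against 184 and 213. Their log2 differences of -1.95 and -1.42 were -1.21 and -0.83 with the length trend removed. Ifi27 was the member on the higher side, at 31.5 and 48.5 against 99.9 and 79.8. Of 14 genes of the MHC class I pathway 6 were higher and 2 lower, with H2-K1, a classical class I chain, at 443 and 354 against 998 and 871 and H2-T23 at 138 and 116 against 66.5 and 77.7. Class II genes were near 0: H2-Ab1, the highest at P7, stood at 16.4 and 2.55 CPM there.

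**Figure D4:**
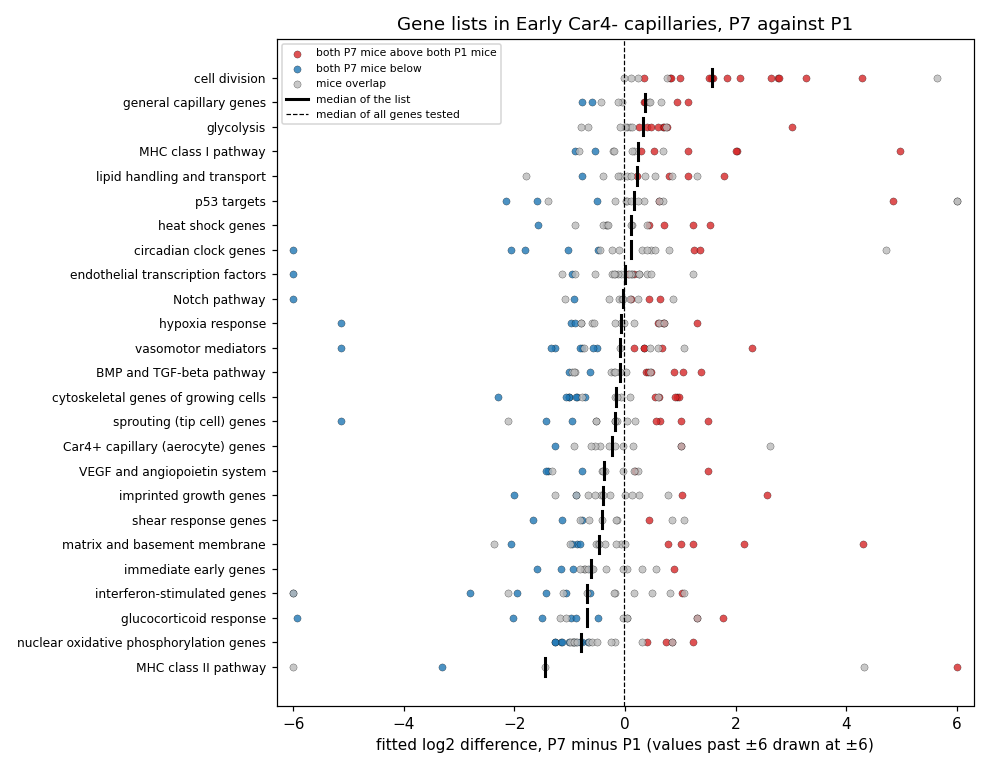
Fitted log2 difference, P7 minus P1, of every tested gene of the 25 lists (horizontal axis), coloured by whether the 2 P7 mice lie above, below or among the 2 P1 mice, with a black bar at each list's median. Cell division has the highest median (1.57) and no member with both P7 mice below, while nuclear oxidative phosphorylation lies at -0.79.

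Of 12 tested genes of the VEGF and angiopoietin system 2 were higher and 3 lower in both P7 mice, shares near those of all genes. Their median was -0.38, or -0.12 without the female P1, -0.16 without the male P1 and -0.09 without the female P7 mouse. Kdr, the main VEGF receptor, stood at 551 and 375 CPM at P1 and at 468 and 486 at P7, with mice that overlapped. Flt1, a VEGF decoy receptor, stood at 414 and 380 against 285 and 211, and Flt4, the receptor of VEGF-C, at 204 and 406 against 77.9 and 182. Angpt2, an antagonist of the Tie2 receptor, stood at 24.3 and 4.31 at P1 and at 36.9 and 43.8 at P7, where the top 5% of cells held 94.4% and 89.2% of its level. It was read in 15.1% and 5.83% of thinned cells at P1 and in 7.41% and 8.11% at P7, so fewer cells of the female P7 than of the female P1 mouse held it. Of 15 sprouting genes 4 were higher and 3 lower: Apln, the ligand of Aplnr, stood at 46.3 and 27.6 at P1 and at 79.1 and 77.4 at P7. Its receptor Aplnr stood at 315 and 233 at P1 and at 779 and 329 at P7, so ligand and receptor were both higher in both P7 mice, with log2 differences of 1.02 ± 0.39 and 0.94 ± 0.43 (SE).

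Of 13 Notch pathway genes 3 were higher and 2 lower. Dll4, a Notch ligand of tip and arterial cells, stood at 86.0 and 111 against 157 and 174, and Hes1, a Notch target, at 380 and 302 against 151 and 232. Of 17 genes of the BMP and TGF-beta pathway 6 were higher and 2 lower, but the median was -0.10 and 8 had a positive fitted difference. These counts were 4 and 2 with cells thinned to 50000 reads and 4 and 3 in the mean CPM over cells. With the length trend removed they were 7 and 5. The coreceptor Eng stood at 698 and 474 at P1 and at 1087 and 1195 at P7, and the receptor Tgfbr2 at 89.3 and 54.7 against 197 and 115. Id1, a target of BMP signalling, stood at 432 and 804 against 346 and 333. Its log2 difference was -1.01, or -0.54 with the length trend removed.

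Of 19 matrix genes 5 were higher and 5 lower in both P7 mice, shares near those of all genes. Their median was -0.47, or -0.15 without the male P1, -0.25 without the female P1 and -0.24 without the male P7 mouse, and -0.18 with cells thinned to 50000 reads. Fn1, fibronectin, stood at 4.72 and 0.59 CPM at P1 and at 59.1 and 43.9 at P7, but it was read in only 9.26% and 5.41% of thinned cells at P7, and the top 5% of cells held 93.6% and 99.96% of its level. Fbln5, which assembles elastic fibres, stood at 71.7 and 16.4 against 238 and 153, and Col18a1, a basement membrane collagen, at 41.9 and 38.3 against 13.6 and 6.73, with 99.1% and 92.4% of the P7 level in the top 5% of cells. Of 18 cytoskeletal genes, with a median transcript of 1887.5 bases, 5 were higher and 7 lower, with a median of -0.17, or -0.26 with the length trend removed, -0.02 without the female P7 mouse and -0.57 without the male P7 mouse. Tmsb10, which binds actin monomers, stood at 1360 and 1649 against 891 and 719, a log2 difference of -1.02, or -0.36 with the length trend removed. Of 17 vasomotor genes 5 were higher and 7 lower: Ptgis, prostacyclin synthase, stood at 5.56 and 4.85 against 29.9 and 24.8, with 94.4% and 81.5% of the P7 level in the top 5% of cells. Ramp2, the partner of the adrenomedullin receptor, stood at 2619 and 5057 against 1497 and 1892. Of 15 tested genes of lipid handling 4 were higher and 1 lower, with Cav2, a caveolin, at 195 and 93.7 against 805 and 223.

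General capillary and Car4+ genes had members on both sides. Of 12 general capillary genes 4 were higher and 2 lower, with Sema3c, a guidance cue, at 427 and 189 against 676 and 722 and Gpihbp1 at 1979 and 3280 against 1424 and 1945. Of 12 Car4+ genes 1 was higher and 1 lower: Ednrb, an endothelin receptor, stood at 226 and 443 against 95.3 and 213. In the mean CPM over cells the mice overlapped for Ednrb, at 164 and 362 against 97.0 and 178. Of 20 endothelial transcription factors 2 were higher and 2 lower, with Meis2 lower at 161 and 151 against 100.8 and 71.0. Of the other lists, hypoxia genes were 4 higher and 3 lower of 17, imprinted genes 2 and 2 of 15, and clock genes 2 and 5 of 16. H19, an imprinted long noncoding RNA, stood at 9.18 and 13 CPM at P1 and at 88.3 and 55.7 at P7. It was read in 13.6% and 13.5% of thinned P7 cells, and the top 5% of cells held 87.9% and 79.4% of its P7 level.

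Markers of other vessel types were read in the same cells. Lyve1, a hyaluronan receptor best known from lymphatic vessels, stood at 2059 and 2557 CPM at P1 and at 886 and 734 at P7. Its log2 difference was -1.63 ± 0.42 (SE). Of the other lymphatic markers, Flt4 (given above), Mmrn1 and Prox1 were also lower in both P7 mice. Mmrn1 stood at 7.97 and 5.10 against 1.12 and 0.28, and Prox1 at 8.65 and 0.08 against 0.01 and 0.03. Ccl21a and Pdpn stood at 0.23 CPM or less. The lymphatic sum was 2280 and 2968 at P1 and 965 and 917 at P7, made up mostly by Lyve1. Of the 7 arterial markers, Cxcl12, Gja4 and Sox17 were higher in both P7 mice and Gja5, Bmx, Efnb2 and Hey1 overlapped. Cxcl12 stood at 190 and 186 against 593 and 513 and Gja4 at 436 and 267 against 779 and 1033, while Sox17 had a log2 difference of 0.05. Gja5, a connexin of larger arteries, stood at 2.01 and 23 against 26.9 and 17.6. The summed arterial markers were 1376 and 1107 at P1 and 2123 and 2428 at P7, a difference made up mostly by Cxcl12 and Gja4. The venous sum was 251 and 248 against 314 and 340. The part of these vessel genes in the other results was not tested.

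The levels in the neighbouring stages come from other labels, so the change of label and the change of day cannot be told apart. Sort gate differs too. The P21 sums pool cells of the CD31 gate and of a gate labelled mesench, while 156 of 162 and 110 of 114 P7 cells were CD31-sorted. In nonproliferative embryonic endothelium of embryonic day E18.5, Hpgd stood at 25.4 and 17.5 CPM in the female and male mouse, and in Late Car4- capillaries at P21 at 2959 and 4018. Its P7 levels thus lay near those of P21. Wif1 stood at 0.02 and 3.37 at E18.5 and at 9.53 and 57.5 at P21, below both P7 mice. Klf2 stood at 434 and 306 at E18.5 and at 587 and 535 at P21, above both P7 mice at either age. Ly6e and Ly6c1 likewise were lower at P7 than at P1 and at P21, with Ly6e at 2133 and 1407 at P21. Hist1h1e differed widely between the mice of a day, at 421 and 41.5 at E18.5 and at 98.8 and 5.71 at P21. The CD31-sorted cells of the female E18.5, P1 and P21 mice shared a run, as did those of the male E18.5, P7 and P21 mice. Cells of the mesench gate came from the run of the female P7 mouse in the female P21 mouse. In the male P21 mouse they came from the run of the male P1 mouse. The part of run and gate in the levels of Hist1h1e and the other genes was not tested.

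**Figure D5:**
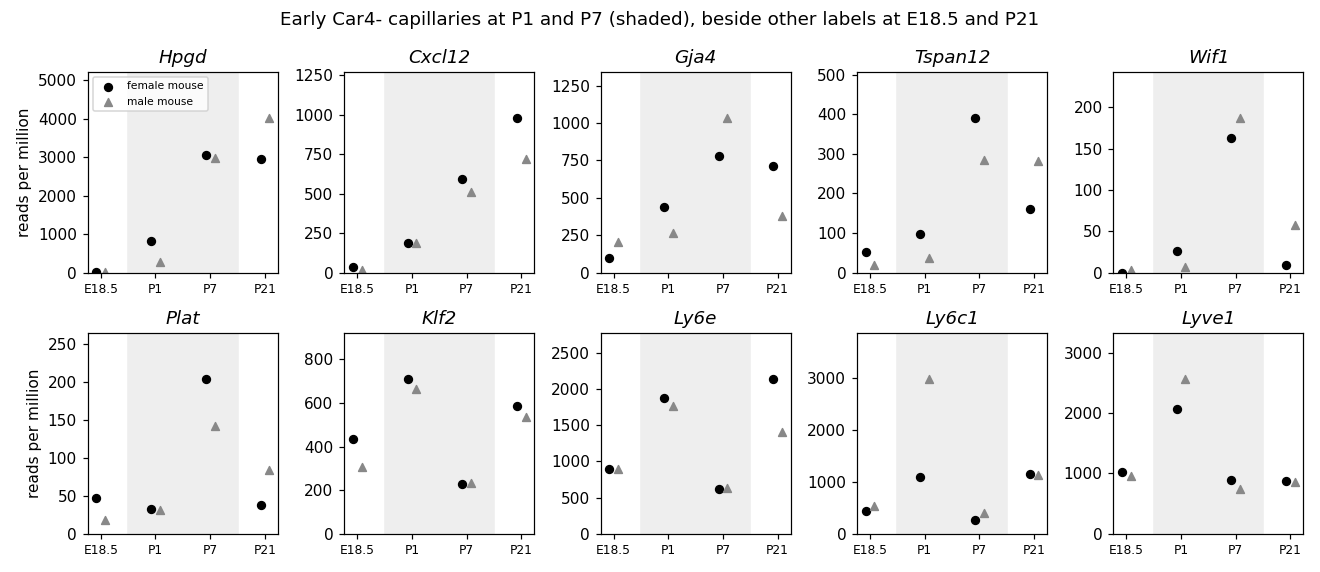
Level of 10 genes in CPM (vertical axes start at 0) in each female (circle) and male (triangle) mouse of 4 ages, with the Early Car4- capillaries shaded and other labels at E18.5 (nonproliferative embryonic endothelium) and P21 (Late Car4- capillaries). Hpgd goes from 25.4 and 17.5 at E18.5 to 2959 and 4018 at P21, while Wif1 and Plat are highest at P7 and Klf2 and Ly6e lowest there.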

How the data were processed

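Single sorted lung cells were sequenced as plate-based Tn5 libraries without molecular identifiers, per the labels. The authors deposited raw whole-number counts, 1 per gene and cell; the submitters' processing notes name STAR 2.5.2b, HTSeq 0.10 and a genome build called GRCh38, a human name, so the build of these mouse counts is not settled. The subtype labels (another deposited field) are the authors'. The table holds 18072 symbols and no mitochondrial or ribosomal protein genes; 5 of its columns were not used.

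The counts of a class were added up within each mouse and tested with edgeR 4.0.16 (TMM, filterByExpr, quasi-likelihood F test, Benjamini-Hochberg over all genes tested, threshold 0.05) in 1 model of 6 mice in 3 groups. Levels are CPM, a gene's counts per 1000000 counts of the sum. DESeq2 1.42.0 and limma 3.58.1 (pseudocount 1) served as alternatives, and the scripts were tested on simulated data. PCR copies were not collapsed, so counts do not number molecules.

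Named genes were, per direction, the 12 of smallest unadjusted p whose mice did not overlap, with a mean of 50 CPM or more where higher and detection in 25% or more of those cells, plus up to 4 per list and the markers. Predicted, Riken, ribosomal, mitochondrial, pseudogene, Xist and Y symbols were left out. Other list members, the sets of 7 replication and 8 mitosis genes and the promoter motif were chosen after their values were seen. The members and lists were chosen with earlier results of these data known. Transcript lengths are the longest transcript in GENCODE M21, which held 99.7% of the symbols. The median cell of the shallowest mouse had 183073 reads; cells under 50000 reads (4 cells) were left out of thinned values.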

Additional observations from a re-analysis of the deposited data

How the results depend on the processing

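Each group had 2 mice, and the spread between mice cannot be told apart from that between runs. What limits the count of genes called was not tested. The count of genes called at P7 against P1 was 0 in edgeR; it was 425 with DESeq2, 1 (Wif1) with cells thinned to 50000 reads, and between 0 and 280 when a mouse was left out. The 280 came without the female P1 mouse, and 117 of them were also called by DESeq2; without the male hyperoxia mouse 1 gene (Pbk) was called. With sex as a replicate block 1 gene was called (Slc39a1, adjusted p = 0.0284 in edgeR), and the block changed no other call. The labels name no animal or litter that mice of a sex share, so the block pairs sex only; the male P7 and male hyperoxia mice share the run of their CD31-sorted cells. limma, RLE normalization, no filter on low counts, CD31-sorted cells alone, the normal-air mice alone, and 2 alternatives added after seeing the data (detected genes per cell as a covariate, the transcript length trend removed) gave 0. The test of the difference from Car4+ capillaries gave 125 genes with DESeq2, 1 without a filter (Ctsc) and 0 to 1 when a mouse was left out (Malat1, without the female P7 mouse). Against venous endothelium it gave 174 with DESeq2, 3 without a filter (H19, Fn1 and Rgs5) and 0 to 11 when a mouse was left out (11 without the male P7 mouse). The cause of these differences was not tested. Genes whose mice did not overlap numbered 5572, and 5413 to 5712 under 5 other ways of making the levels. The 24 genes named by direction passed the threshold in 46 of 384 refits; the rule that chose them fixes their sign when a mouse is left out. Of 90 genes named by list for their small p, 7 turned in 1 refit each, all without 1 mouse, and over the refits that leave out a mouse ran from -2.17 to 0.12 for Tbx2, -1.32 to 0.073 for Hilpda, -1.76 to 0.018 for Hlx, -2.26 to 9.72 for Eda2r, -4.02 to 7.93 for Gdf15, -1.08 to 6.85 for Ciita and -2.72 to 5.71 for Hlf (log2). The share of Early Car4- cells and the detected genes per cell moved by less than the spread between mice.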
